A study of Nannospalax ehrenbergi and Mus musculus with 14 samples.

Results

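miR-146a, miR-146b, miR-155 and miR-147 are 4 microRNAs of the inflammatory response, and their levels were followed at the tumor side and at the opposite side of *Spalax*, the blind mole rat, and of mice given a carcinogen. They were chosen by name, as the rows miR-146a-5p, miR-146b-5p, miR-155-5p and miR-147-3p of both deposited tables. The other strand of each hairpin was taken along, which gave 8 of the 1326 microRNA rows of each table. Every animal, in all groups, received a single subcutaneous injection of 3-methylcholanthrene (3MCA), a chemical carcinogen, into the left side of the neck. The dose was 1 mg for *Spalax* and 200 µg for mice, and no library from an untreated animal is analysed here. The injected side (IS) was the tumor and the uninjected side (UIS) was tissue from the other side of the neck of the same animal, labelled as muscle.

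Animals are named as in the deposited tables. *Spalax* Sp600 and Sp976 carried a granuloma, a benign inflammatory mass, 14 and 16 months after 3MCA, and both were female. *Spalax* Sp2240, a female, and Sp2230, a male, carried a fibrosarcoma, a malignant tumor, after 18 and 30 months. The *Spalax* were caught in the wild, and their age was estimated by the study as between 2 and over 10 years, without an age for each animal. The mice were male C57BL/6, 3 to 4 months old, and mice M512, M1023 and M1019 carried fibrosarcomas after 11, 12 and 14 weeks. The UIS column that remains for mouse M1019 bears the name M1018, so this library was used as an unpaired replicate of its group. Each IS and UIS group thus held 2 libraries in *Spalax* and 3 in mice. Species, dose, age and time after injection cannot be told apart in any comparison between *Spalax* and mice.

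The mature strands are cut from a hairpin, and the strand loaded into the Argonaute protein binds messenger RNAs mainly through its seed, the bases near its 5′ end. miR-146a and miR-146b are made when the transcription factor NF-κB is active in macrophages, lymphocytes and many stromal cells, and they repress IRAK1 and TRAF6, which carry the signal of Toll-like and interleukin-1 receptors, so they act as a brake. miR-155 is made from the long RNA of its host gene in activated immune cells and represses SOCS1 and SHIP1, which are themselves brakes. miR-147 is induced by Toll-like receptor ligands in macrophages and limits the release of inflammatory cytokines.

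The 4 hairpins were matched to GENCODE M21 genes on the mouse genome GRCm38, and a stretch of 22 bases that starts at the base before the seed is shown for each, because it decides which of these microRNAs a read can be told from. Capitals mark the seed, bases 2 to 8.
miR-146a: tGAGAACTgaattccatgggtt
miR-146b: tGAGAACTgaattccataggct
miR-155: tTAATGCTaattgtgatagggg
miR-147: gTGTGCGGaaatgcttctgcta
miR-146a and miR-146b share their seed, and over these 22 bases they differ at 2 positions, G18A and T21C, counted from 1 at the 5′ end with the base of miR-146a first. miR-155 and miR-147 each have a seed of their own. GAGAACT, on either strand, occurs in 31 of 2202 annotated mouse microRNA hairpins (1.41%), TAATGCT in 12 (0.545%) and TGTGCGG in 11 (0.5%). On the given strand only, the numbers were 15, 9 and 6. These count the motif anywhere in a hairpin, not only at a seed. A read of miR-146a or miR-146b that lacks its 3′ end, or a *Spalax* read that differs from the mouse sequence there, can be given to either name, so the split between the pair is uncertain. *Spalax* sequences were not analysed here, and the *Spalax* reads were counted under mouse names.

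Mir146 lies at chr11:43374397-43374461 on the minus strand outside any other annotated gene, and the nearest gene is the lincRNA Gm12148 at a distance of 11021 bp. Mir146b lies at chr19:46342762-46342870 on the plus strand in an intron of the protein-coding gene Mfsd13a. Mir155 lies at chr16:84714140-84714204 on the plus strand in exon 2 of its host lincRNA Mir155hg. Mir147 lies at chr2:122640803-122640881 on the plus strand in the 3′ UTR of the protein-coding gene AA467197. No pair of these hairpins shares a chromosome.

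MicroRNA reads numbered 2034574 to 13982842 per library over the 14 libraries, and every IS library held fewer reads than every UIS library. The values are normalized read counts (the reads over a library's size factor), and the *Spalax* and mouse tables were scaled separately. The muscle label was met at the UIS and not at the IS: 7 strands of striated muscle (miR-1a-3p, both of miR-133a, miR-133b-3p, miR-206-3p, miR-208b-3p, miR-499-5p) took between 27.7% and 37.3% of the reads of each UIS library and between 0.00959% and 3.94% of each IS library. In these bulk samples, more cells that make a microRNA and more of it in each cell cannot be told apart. A list of 6 leukocyte microRNAs (both arms of miR-142a and miR-223, with miR-150-5p and miR-342-3p) took 0.0615% to 0.108% of the reads at the UIS, against 0.710% to 0.808% in granuloma, 0.877% to 2.41% in *Spalax* fibrosarcoma and 0.364% to 1.85% in mouse fibrosarcoma. None of the 6 was at 0 in any library, and the part of leukocytes in the results that follow was not tested.

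**Figure D1:**
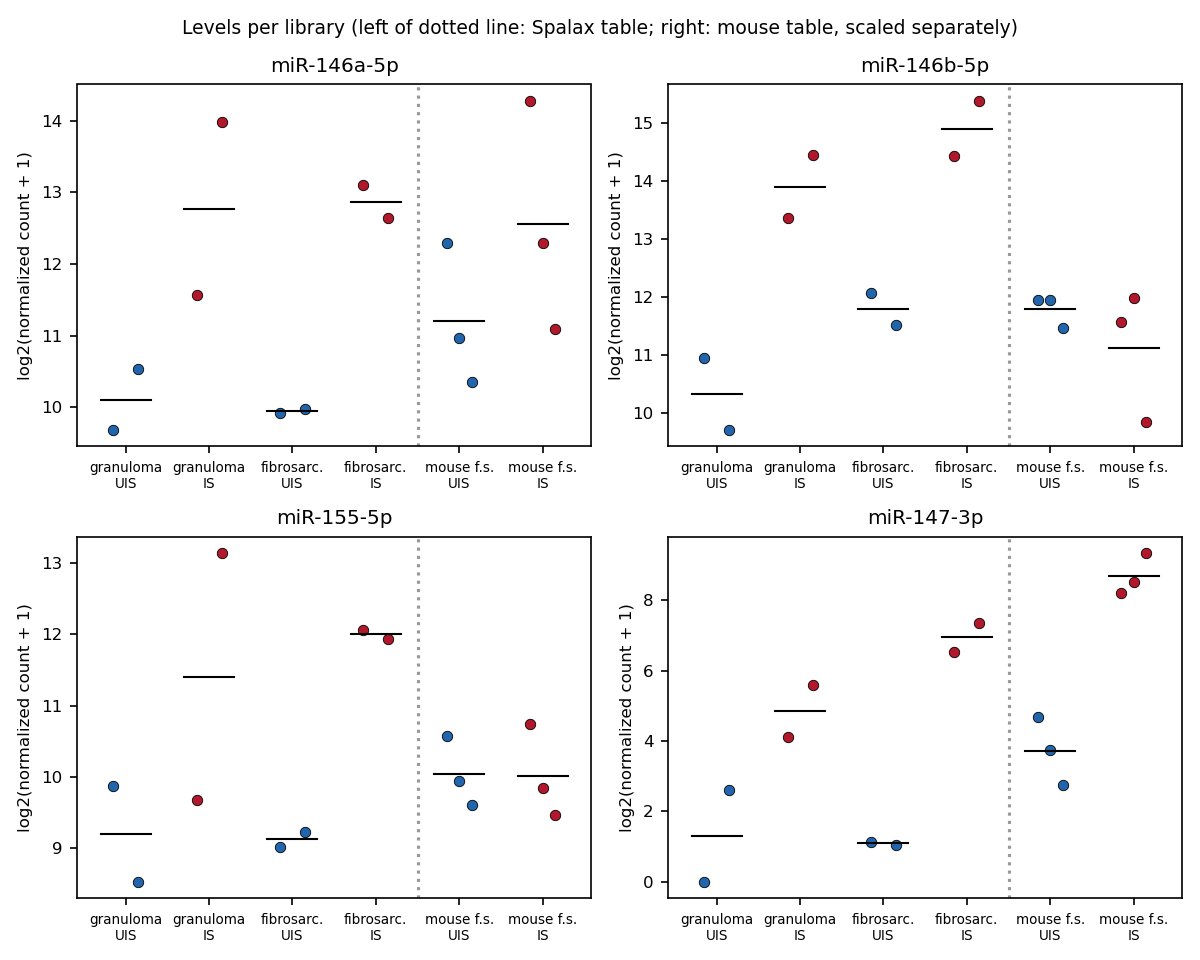
Level of each of the 4 microRNAs in each library, as log2(normalized count + 1), by tumor type and side. Blue points are UIS libraries, red points are IS libraries, bars are group means, and the mouse libraries right of the dotted line come from a table scaled separately. miR-147-3p is higher at the IS than at the UIS in all 3 tumor types, and miR-146b-5p in both *Spalax* tumor types.

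In *Spalax*, miR-146b-5p was the most abundant of the 4 in 7 of the 8 libraries. Its normalized count was 1963 and 837 at the UIS of granuloma animals Sp600 and Sp976, and 10474 and 22250 in their granulomas. In the fibrosarcoma animals Sp2240 and Sp2230 it was 2933 and 4302 at the UIS and 42499 and 21997 in the tumor. Every *Spalax* tumor lay above every UIS library. The rise was 5.34-fold and 26.6-fold within animals Sp600 and Sp976, and 14.5-fold and 5.11-fold within Sp2240 and Sp2230. On the log2(value + 1) scale the change was 3.57 (SE 0.59, limma adjusted p = 0.00271) in granuloma and 3.11 (SE 0.59, adjusted p = 0.00627) in fibrosarcoma, the latter with an adjusted p of 0.0554 without the UIS library of Sp2240.

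The other strand, miR-146b-3p, is the minor product of this hairpin. It moved from 14.2 and 8.89 to 37.4 and 58.3 in granuloma and from 12.9 and 14.4 to 137 and 69.1 in fibrosarcoma, again with no overlap between the sides. Its log2 change was 1.96 (SE 0.57, limma adjusted p = 0.0255) in granuloma and 2.74 (SE 0.57, adjusted p = 0.00909) in fibrosarcoma. The call in granuloma was lost with the animal as a replicate block (adjusted p = 0.0565) and without any of the 4 libraries of Sp600 and Sp976 or either UIS library of the fibrosarcoma animals (0.0506 to 0.136), and the call in fibrosarcoma was lost without the UIS library of Sp2230 or Sp2240 (0.0597 and 0.0687).

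miR-146a-5p, the seed partner of miR-146b, rose with it. Its normalized count was 825 and 1478 at the UIS of animals Sp600 and Sp976 and 3025 and 16145 in their granulomas. It was 1005 and 968 at the UIS of animals Sp2240 and Sp2230 and 6414 and 8778 in their fibrosarcomas. All 4 IS libraries lay above all 4 UIS libraries, and the granuloma of Sp976 was the highest and that of Sp600 the lowest of the tumors. The log2 change was 2.66 (SE 0.75, limma adjusted p = 0.0219) in granuloma and 2.93 (SE 0.75, adjusted p = 0.0186) in fibrosarcoma. Without the UIS library of Sp600, the IS library of Sp976 or the UIS library of Sp976, the adjusted p in granuloma lay between 0.0598 and 0.125, and with only the 4 libraries of granuloma animals it was 0.0789. In fibrosarcoma it lay between 0.0791 and 0.0944 without either UIS library or the IS library of Sp2230.

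The minor strand miR-146a-3p had at most 1 read in any *Spalax* UIS library. Its normalized count was 2.50 and 16.5 in the granulomas of Sp600 and Sp976 and 6.51 and 10.9 in the fibrosarcomas of Sp2240 and Sp2230. Set against 3 reads per UIS library, the smallest number used as a floor here, its mean was at least 2.35-fold higher in granuloma and at least 2.54-fold higher in fibrosarcoma. limma gave an adjusted p of 0.0785 in granuloma and 0.0324 in fibrosarcoma, the latter 0.0538 with the replicate block and 0.0739 to 0.113 without either UIS library or the IS library of Sp2240.

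miR-147-3p was the rarest of the 4 and had the largest fitted change in fibrosarcoma. It was counted with 0 and 4 reads at the UIS of Sp600 and Sp976, normalized counts of 0 and 5.08, and stood at 16.2 and 46.9 in their granulomas. Each UIS library of the fibrosarcoma animals held 1 read of it, normalized counts of 1.08 in Sp2240 and 1.20 in Sp2230, against 163 and 92.0 in the tumors. No IS library overlapped with a UIS library. The mean in fibrosarcoma was at least 37.2-fold that of 3 reads per UIS library. The log2 change was 3.54 (SE 0.96, limma adjusted p = 0.0195) in granuloma and 5.85 (SE 0.96, adjusted p = 0.00325) in fibrosarcoma, and both values depend on the 1 added before the logarithm. In granuloma the adjusted p was 0.0995 without the UIS library of Sp600, 0.104 without the IS library of Sp976 and 0.0589 with only the 4 libraries compared. The other strand, miR-147-5p, reached at most 6 reads in a *Spalax* library and was at 0 in all 4 UIS libraries.

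miR-155-5p was uneven among the *Spalax* tumors. In animal Sp600 it stood at 932 at the UIS and 819 in the granuloma, a fold of 0.878, whereas in animal Sp976 it stood at 368 and 9006, a fold of 24.4. In fibrosarcoma animals Sp2240 and Sp2230 it went from 601 and 516 to 3923 and 4270. Both fibrosarcomas thus lay above all 4 UIS libraries, and 1 of the 2 granulomas lay among them. The log2 change was 2.21 (SE 1.02, limma adjusted p = 0.110) in granuloma and 2.88 (SE 1.02, adjusted p = 0.0593) in fibrosarcoma, so neither passed the threshold. Without the granuloma of animal Sp600, which leaves 1 granuloma assumed to vary like the other groups, the values were 3.94 (adjusted p = 0.00364) and 2.88 (adjusted p = 0.00457). Without that of Sp976 the granuloma change was 0.48 (adjusted p = 0.567), and the fibrosarcoma change passed (adjusted p = 0.00476), as it did with only the libraries compared (2.88, adjusted p = 0.00745). DESeq2 on the recovered reads called both (adjusted p = 0.00475 and 0.00678), and edgeR called the granuloma change (0.0375). The reads of animal Sp600 on the 2 sides were 656 and 658, in libraries of 3573253 and 11557482 reads.

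The minor strand miR-155-3p had no read in any of the 4 *Spalax* UIS libraries. It had 4 and 6 reads in the granulomas of Sp600 and Sp976, and 1 and 30 reads in the fibrosarcomas of Sp2240 and Sp2230. These levels were below the minimum for testing in *Spalax*, a normalized count of 10 in 2 libraries. Against the floor of 3 reads per UIS library, its mean was at least 1.56-fold higher in granuloma and at least 2.70-fold higher in fibrosarcoma.

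Of the 8 strands, 6 were tested in *Spalax*, and miR-155-3p and miR-147-5p had too few reads. miR-146a-3p and miR-147-3p reached the minimum value of 10 in IS libraries alone, so they were tested only because they were high on that side, and their place among the rises is given without weight. The other 4 reached it on both sides, and 3 of these 4 (both strands of miR-146b and miR-146a-5p) rose in granuloma and 3 in *Spalax* fibrosarcoma. With all 6 strands the counts were 4 and 5, and none fell. Among the 447 microRNAs tested, 25.5% rose and 48.3% changed in either direction in granuloma, and 15.2% rose and 37.4% changed in *Spalax* fibrosarcoma.

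In mouse fibrosarcoma the 4 microRNAs did not move together. miR-147-3p had normalized counts of 24.4, 12.4 and 5.77 at the UIS of mice M1018, M1023 and M512, and of 293, 364 and 643 in the tumors of M1019, M1023 and M512. The lowest tumor lay far above the highest UIS library. The log2 change was 4.96 (SE 0.60, limma adjusted p = 0.00137), and the ratio of the means was 30.6. This strand was past the threshold under every alternative run, with log2 changes between 4.48 and 5.98.

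miR-146a-5p had normalized counts of 5022, 1999 and 1303 at the UIS of mice M1018, M1023 and M512 and of 19864, 5006 and 2186 in the tumors of M1019, M1023 and M512. It was higher in the tumor in both mice that can be paired, but the highest UIS library lay just above the middle tumor, so the sides overlapped. The log2 change was 1.35 (SE 0.87, limma adjusted p = 0.213). The minor strand miR-146a-3p had 1 read in 1 of the 3 UIS libraries and normalized counts of 15.2, 5.78 and 2.22 in the tumors, and it was too rare to be tested.

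miR-146b-5p had normalized counts of 3922, 3965 and 2825 at the mouse UIS and of 3015, 4035 and 913 in the tumors. Mouse M1023 had nearly the same value on both sides (fold 1.02), and mouse M512 had a lower one in its tumor (fold 0.323). The log2 difference was -0.66 (SE 0.58, limma adjusted p = 0.349), with a 95% confidence interval from -2.02 to 0.70. miR-146b-3p, at 9.50, 4.12 and 3.84 at the UIS and 5.08, 7.23 and 1.11 in the tumors, overlapped between the sides and was not tested.

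miR-155-5p had normalized counts of 1530, 983 and 782 at the mouse UIS and of 1710, 917 and 708 in the tumors. The ranges of the sides nearly coincide. The log2 difference was -0.03 (SE 0.46, limma adjusted p = 0.959), with a 95% confidence interval from -1.11 to 1.05. Its minor strand, miR-155-3p, had 2 or 3 reads in each UIS library and normalized counts of 15.6, 9.39 and 6.67 in the tumors, at least 2.27-fold the floor of 3 reads per UIS library on average. miR-147-5p had no read at the mouse UIS and 4, 2 and 3 reads in the tumors of M1019, M1023 and M512.

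Of the 8 strands, 4 were tested in mice and 1 passed the threshold, where 57.8% of the 547 microRNAs tested changed and 32.2% rose. That strand, miR-147-3p, reached the minimum in all 3 tumors and in 2 UIS libraries, where 3 libraries were needed. Over the 6 animals with both sides, *Spalax* and mice, the normalized count was higher at the IS in 6 of 6 for miR-147-3p, miR-146a-5p, miR-146a-3p and miR-155-3p, in 5 of 6 for both strands of miR-146b, in 4 of 6 for miR-147-5p and in 3 of 6 for miR-155-5p. Scaled to total reads, miR-155-5p and both strands of miR-146b were higher at the IS in 6 of 6 as well, and the other counts stayed as they were. Several pairs counted as higher lay at or under the floor of 3 reads on both sides. They were those of miR-146a-3p in Sp600, Sp2240 and M512, of miR-155-3p in Sp2240, and of miR-147-5p in Sp976, M1023 and M512. How many of all microRNAs were higher in every pair was not counted.

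**Figure D2:**
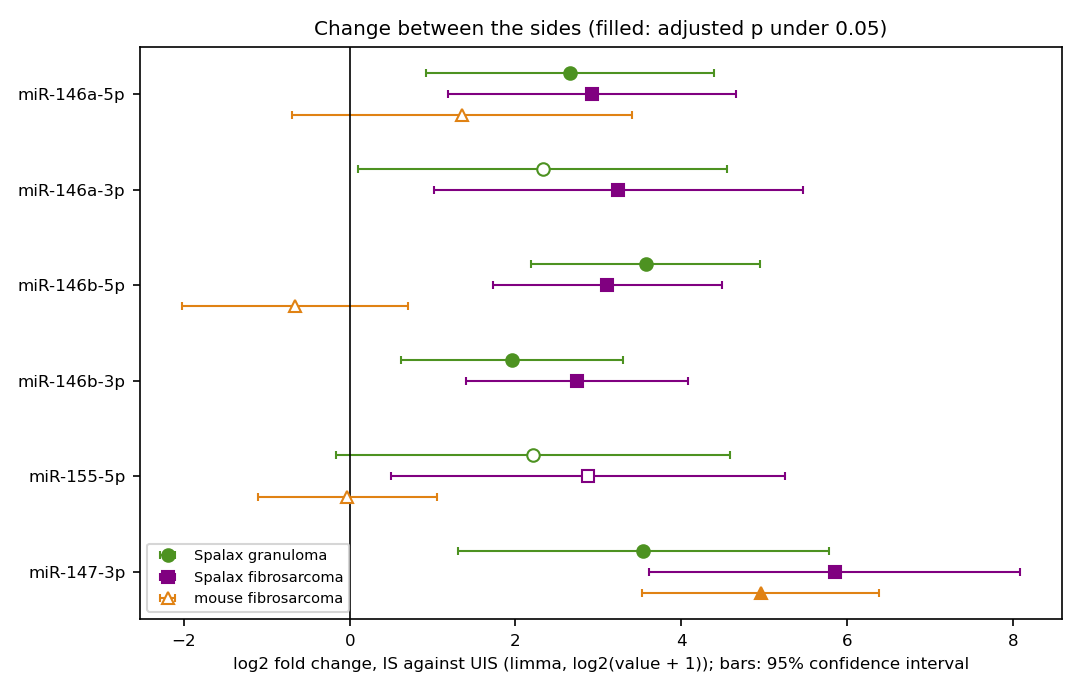
Change between the sides for each tested strand, as the limma log2 fold change of IS against UIS on log2(value + 1), with bars for the 95% confidence interval. Filled symbols have an adjusted p under 0.05; circles are *Spalax* granuloma, squares *Spalax* fibrosarcoma and triangles mouse fibrosarcoma. For miR-146b-5p the *Spalax* values of 3.57 and 3.11 lie right of 0 and the mouse value of -0.66 left of it. All 3 values of miR-147-3p lie at 3.54 or above. In *Spalax*, miR-146a-3p and miR-147-3p were tested only because they were high at the IS.

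The size of these changes, and in mice the direction of miR-146b-5p and miR-155-5p, rest on how the libraries were scaled. When reads were scaled to the total of each library, the median log2 change over the tested microRNAs went up, to 1.71 from 0.13 for granuloma, to 1.14 from -0.23 for the *Spalax* fibrosarcomas and to 2.24 from 0.21 for the mouse ones. The share of called microRNAs that were higher at the IS moved with it, to 83.7% from 52.8%, to 83.0% from 40.7% and to 92.4% from 55.7%. In mice, miR-146b-5p then came to 1.72 and miR-155-5p to 2.33, so both turned to higher at the IS and passed the threshold (limma adjusted p = 0.0427 and 0.00870), miR-146b-5p lying below that median and miR-155-5p close to it. miR-146a-5p came to 3.72 in mice (adjusted p = 0.00974) and stood above the median. In *Spalax*, miR-155-5p came to 4.02 in granuloma and 4.53 in fibrosarcoma and passed the threshold in both (adjusted p = 0.0107 and 0.00847).

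**Figure D3:**
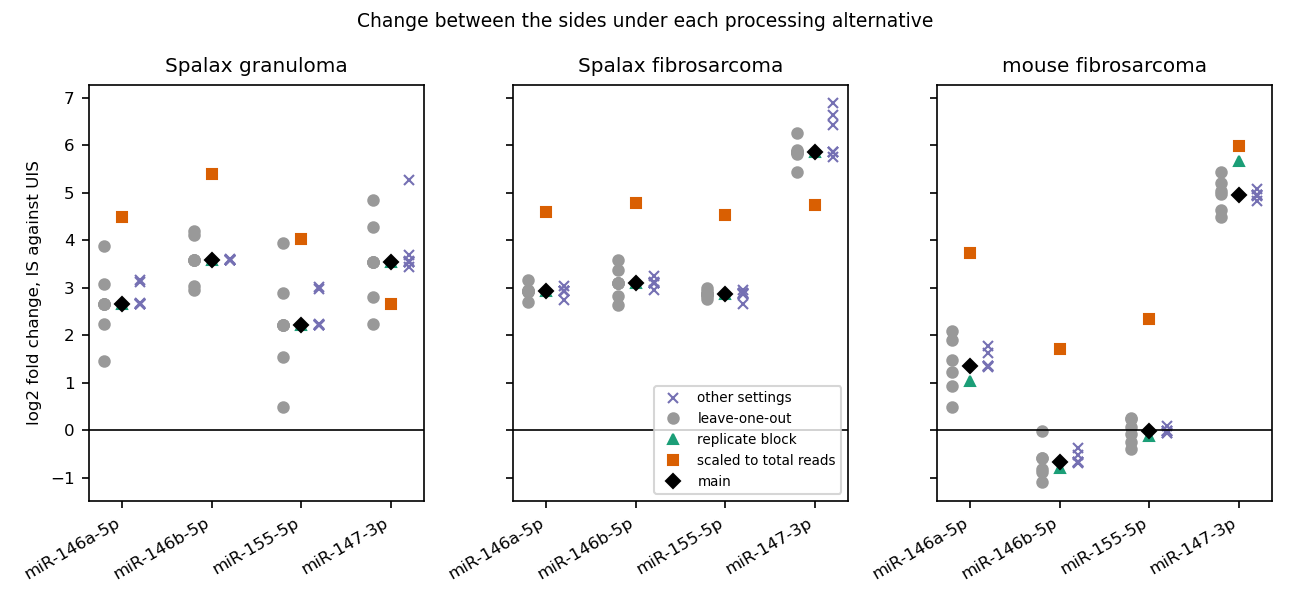
Log2 change between the sides (y axis) of the 4 microRNAs under each alternative: black diamonds as reported, orange squares scaled to total reads, green triangles with the animal as a replicate block, grey circles with 1 library left out and violet crosses the other settings. In *Spalax* every symbol lies above 0, whereas in mice those of miR-146b-5p and miR-155-5p lie around 0 or below, except the squares at 1.72 and 2.33.

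The difference between the species was fitted over 13 libraries of the *Spalax* table, which also holds 5 of the mouse libraries. In that table the mouse values of miR-146b-5p were 2642 ± 494 (SD, n = 2) at the UIS and 2235 ± 1298 (SD, n = 3) in the tumor. Those of miR-146b-3p were 3.11 and 3.12 at the UIS (3 and 2 reads) and 0.990 to 6.01 in the tumors (1 to 14 reads). No mouse library reached the minimum value for testing, so miR-146b-3p was tested only through its values in *Spalax*. It is also the other strand of the same hairpin, and its adjusted p below is given without weight. The mouse change less the *Spalax* fibrosarcoma change was -3.56 on the log2 scale for miR-146b-5p (SE 0.96, limma adjusted p = 0.0231) and -2.72 for miR-146b-3p (SE 0.88, adjusted p = 0.0460). These 2 of the 7 strands tested passed the threshold, where 26% of the 607 microRNAs tested did, a share close to that of the strands. With a replicate block for the animal the adjusted p was 0.0612 and 0.105, and edgeR on the recovered reads gave 0.0536 and 0.185, so neither call held in those fits. The call of miR-146b-5p was also lost when reads were scaled to the library totals (0.0546) and without the UIS library of M1023, M512 or Sp2240 or the IS library of Sp2240 (0.0570 to 0.0946), and that of miR-146b-3p without any of 11 libraries (0.0516 to 0.130).

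The differences of the other strands did not pass. miR-155-5p differed by -2.51 (SE 1.25, limma adjusted p = 0.176) with a 95% confidence interval from -5.29 to 0.27, and it passed without the granuloma of Sp600 or of Sp976 (0.0321 and 0.0331). miR-146a-5p differed by -0.90 (SE 1.29, adjusted p = 0.646) and miR-147-3p by -0.33 (SE 1.18, adjusted p = 0.867), the latter with an interval from -2.96 to 2.30. The rare strands miR-155-3p and miR-146a-3p differed by -1.68 (adjusted p = 0.218) and -0.61 (adjusted p = 0.737). This comparison sets fibrosarcomas at 18 and 30 months after 1 mg against fibrosarcomas at 11 to 14 weeks after 200 µg.

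The balance within the miR-146 pair does not depend on the size factors, since both strands are read from the same library. miR-146a-5p made up 29.6% and 63.8% of the miR-146a-5p and miR-146b-5p reads at the UIS of *Spalax* Sp600 and Sp976, and 22.4% and 42.1% in their granulomas. It made up 25.5% and 18.4% at the UIS of *Spalax* Sp2240 and Sp2230, and 13.1% and 28.5% in their fibrosarcomas. In mice the share was 56.2%, 33.5% and 31.6% at the UIS of M1018, M1023 and M512, and 86.8%, 55.4% and 70.5% in the tumors of M1019, M1023 and M512. The share was thus higher in the tumor in both paired mice and in 1 of 4 *Spalax*.

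Over the 6 paired animals, the log2 ratio of miR-146a-5p to miR-146b-5p was higher at the IS by 0.25 ± 1.48 (SD), in 3 of 6 animals (two-sided exact permutation test over sign flips of the pairs, p = 0.688, where 6 pairs allow 0.0313 at the smallest). The difference was 1.30 in mouse M1023 and 2.37 in mouse M512, and -0.54, -1.28, -1.18 and 0.83 in *Spalax* Sp600, Sp976, Sp2240 and Sp2230. Over the 4 *Spalax* alone it was -0.54 ± 0.97 (SD, exact p = 0.375, smallest possible 0.125), and without mouse M512 it was -0.18.

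**Figure D4:**
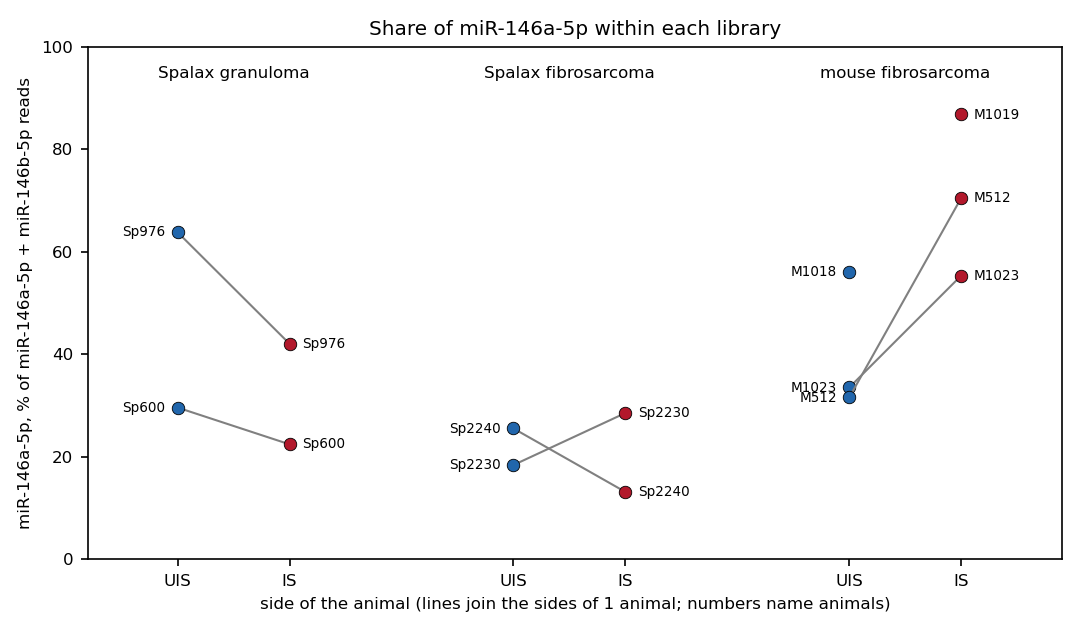
Share of miR-146a-5p in the summed reads of miR-146a-5p and miR-146b-5p (y axis, %) in each library, at the UIS and IS of each tumor type; lines join the sides of 1 animal and numbers name the animals. In mice the 3 tumors lie between 55.4% and 86.8%, and in *Spalax* the tumors lie between 13.1% and 42.1%.

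The minor strands gave a further view of each hairpin. miR-146b-3p made up 0.261% to 1.05% of the reads of its hairpin in the 8 *Spalax* libraries and 0.104% to 0.242% in the 6 mouse libraries. The mouse shares rest on 1 to 14 reads of this strand. Exact 95% binomial intervals overlapped between the species, as for the UIS of M1018 (0.0972% to 0.497%), the tumor of M512 (0.00308% to 0.675%) and the granuloma of Sp976 (0.191% to 0.348%). In the tumors, miR-155-3p made up 0.904% (exact 95% binomial interval 0.655% to 1.22%), 1.01% (0.541% to 1.73%) and 0.933% (0.343% to 2.02%) of its hairpin in mice M1019, M1023 and M512. In the *Spalax* granulomas its share was 0.606% (0.165% to 1.54%) in Sp600 and 0.0843% (0.03095% to 0.1835%) in Sp976. In the *Spalax* fibrosarcomas it was 0.0553% (0.0014% to 0.308%) in Sp2240 and 0.381% (0.257% to 0.544%) in Sp2230. These intervals cover counting error only, and a strand of *Spalax* that differs from the mouse sequence may be counted less.

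Between the *Spalax* tumor types the change between the sides did not differ by a call for any of the 6 strands (limma, 0 at an unadjusted p under 0.05, and 0 by edgeR and by DESeq2), where 3.8% of the 447 microRNAs tested did. miR-147-3p had the largest difference, a change lower by 2.31 in granuloma (SE 1.36, adjusted p = 0.400, interval from -5.48 to 0.86). Compared directly, the tumors also gave no call for the 6 strands (0 at an unadjusted p under 0.05, and 0 by edgeR and by DESeq2), where 18.8% of microRNAs passed. miR-147-3p, at 16.2 and 46.9 in granuloma and 163 and 92.0 in fibrosarcoma, did not overlap (log2 difference -2.10, SE 0.96, limma adjusted p = 0.204). miR-146b-3p did not overlap either (-1.04, SE 0.57, adjusted p = 0.297), while miR-146a-5p, miR-146b-5p and miR-155-5p did. Groups of 2 libraries stand apart easily without a difference, and how many of all microRNAs did so was not counted.

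In the order of the *Spalax* group means, both tumor groups stood above both UIS groups for each of the 4 microRNAs. For miR-146a-5p and miR-155-5p granuloma came first, with means of 9585 ± 9277 and 4912 ± 5789 (SD, n = 2), and fibrosarcoma next, with 7596 ± 1672 and 4096 ± 245, and these neighbours overlapped. For miR-146b-5p fibrosarcoma came first, with 32248 ± 14497, and granuloma next, with 16362 ± 8327, which also overlapped. At the UIS, limma called none of the 6 strands and 0% of all microRNAs tested, and 0 by edgeR and DESeq2. miR-146b-5p was 1 of 5 microRNAs with an unadjusted p under 0.05 there, lower by 1.47 in the granuloma-bearing animals (SE 0.59, unadjusted p = 0.0400, adjusted p = 1), with ranges of 837 to 1963 and 2933 to 4302 that did not overlap. These ranges too are of 2 libraries each, which stand apart easily.

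Other microRNAs tied to inflammation were read from a list of 13 that holds none of the 4. In granuloma 7 of 12 tested rose and 1 fell, in *Spalax* fibrosarcoma 5 of 12 rose and 1 fell, and in mouse fibrosarcoma 6 of 13 rose and none fell, where 25.5%, 15.2% and 32.2% of all microRNAs tested rose. The median log2 change of the list was 1.56, 1.16 and 0.98, and that of all tested was 0.13, -0.23 and 0.21. The list took 0.481% to 1.19% of the reads of UIS libraries and 12.1% to 20.7% of those of IS libraries.

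miR-21a-5p, which is abundant in many inflamed and tumor tissues, rose by a log2 change of 3.63 in both *Spalax* tumor types and 3.04 in mice (limma adjusted p = 0.000820, 0.00106 and 0.000581). miR-221-3p and miR-222-3p, a cluster tied to proliferation, rose by 3.75 and 4.36 in granuloma, 4.44 and 4.81 in *Spalax* fibrosarcoma and 1.72 and 2.90 in mice. miR-223-3p, made by neutrophils and macrophages, rose by 4.39, 4.86 and 1.83 in the same order (adjusted p = 0.0130, 0.0107 and 0.0487). miR-99b-5p rose by 1.13, 1.28 and 0.98. miR-187-3p, which interleukin-10 induces in monocytes, fell by 3.06 in granuloma and fell by 2.59 in *Spalax* fibrosarcoma (adjusted p = 0.00186 and 0.00486) and differed by -1.10 in mice (adjusted p = 0.0512).

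In the leukocyte list 4 of 6 rose in granuloma and miR-150-5p, a lymphocyte microRNA, fell by 2.05, where 25.5% of all microRNAs tested rose. In *Spalax* fibrosarcoma 4 rose, against 15.2% of all tested, and in mice 3 rose, against 32.2%, and none fell in either. Its summed normalized count was 9665 to 14840 at the *Spalax* UIS and 31810 to 106300 in the *Spalax* tumors, and in mice 15670 to 18770 at the UIS and 13980 to 64240 in the tumors, where the sides overlapped. A list of 5 fibroblast microRNAs (miR-199a, miR-199b and miR-214) took 11.7% to 11.8% of reads in granuloma, 3.22% to 6.60% in *Spalax* fibrosarcoma, 4.29% to 8.89% in mouse fibrosarcoma and 0.233% to 1.10% at the UIS, and 5 of 5 rose in granuloma, 0 of 5 in *Spalax* fibrosarcoma and 4 of 5 in mice, with the same shares of all microRNAs tested beside them (25.5%, 15.2% and 32.2%). A list of 5 red cell strands (both of miR-144, miR-451a, miR-486a-5p and miR-486b-5p) took 2.71% to 4.81% of reads at the *Spalax* UIS. It took 14.3% to 35.5% at the mouse UIS, against 0.379% to 6.41% at the IS. The 2 miR-486 strands had identical fitted values, so the same reads may enter these shares more than once. Those 2 fell in each tumor type, with log2 changes of -4.65 in granuloma, -4.26 in *Spalax* fibrosarcoma and -5.47 in mice. The other 3 were not called in any. The list thus did not move as 1, and its share of reads is not a measure of red cells. The endothelial strands of miR-126a, both from the same hairpin, fell in each tumor type. Of all microRNAs tested, 102 of 447 fell in granuloma, 99 of 447 in *Spalax* fibrosarcoma and 140 of 547 in mice. The 7 epithelial microRNAs took at most 0.0243% of the reads of any library. The part of these cell types in the changes of the 4 microRNAs was not tested.

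By Pearson correlation of log2(value + 1) over the 8 *Spalax* libraries, among 446 other tested microRNAs, miR-146a-5p was most like miR-146a-3p (r = 0.935), miR-93-3p (0.920) and miR-147-3p (0.916). miR-146b-5p was most like miR-146b-3p (0.969), miR-15b-5p (0.966) and miR-193a-3p (0.960). miR-155-5p was most like miR-146a-3p (0.966), miR-326-3p (0.915) and miR-146a-5p (0.915), and miR-147-3p was most like miR-15b-3p (0.935), miR-18a-5p (0.934) and miR-301b-3p (0.933). The points share the side of the neck and the size factor of each library, so these values are a description. Over the 6 mouse libraries, among 546 microRNAs, the nearest to miR-146a-5p were miR-223-5p (0.903), miR-877-3p (0.903) and miR-200b-3p (0.874), and those to miR-146b-5p were miR-574-3p (0.941), miR-497a-5p (0.925) and miR-3102-5p.2-5p (0.917). For miR-155-5p they were miR-339-3p (0.890), miR-423-3p (0.835) and miR-146a-5p (0.829), and for miR-147-3p they were miR-466d-3p (0.993), miR-466f-3p (0.992) and miR-153-3p (0.990).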

How the data were processed

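Small RNA of 14 libraries was analysed. Per the paper's methods, the authors trimmed adaptors, mapped reads with mirDeep and compared sides with DESeq2. The submitters' processing notes name TopHat 1.4.1, HTSeq, DESeq and GRCm38 for the series without saying for which data, and the mapping settings are not given in the sources used here. The deposited values are a signal per microRNA, namely reads divided by a median-of-ratios size factor over the 6 mouse libraries (mouse table) or all 14 libraries (*Spalax* table). The values themselves show it, since 100% of them gave whole reads (tolerance 0.01). Reads in the 5 libraries held by both tables differed by 0. No 2 replicates agreed within sampling noise (smallest chi-square per degree of freedom 189.6). Separate animals were the replicates.

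The main test was limma 3.58.1 with a trend on log2(value + 1), on microRNAs that reached a value of 10 in 2 or more libraries (3 in the mouse fit), with Benjamini-Hochberg adjustment over all tested and a threshold of 0.05. This scale understates the change of rare microRNAs. Each side and tumor type had its own mean, over 8 *Spalax*, 6 mouse or, for the species, 13 libraries. The libraries of 1 animal are paired by the animal number in the labels, and the correlation of their deviations from their groups' means was 0.0933 for granuloma, 0.0041 for *Spalax* fibrosarcoma, and -0.107 and 0.122 for the paired mice. Alternatives were a pseudocount of 0.1, no filter, scaling to total reads, size factors without muscle microRNAs, no trend, only the libraries compared, the animal as a replicate block, each library left out, and, on recovered reads, edgeR 4.0.16 and DESeq2 1.42.0. A floor of 3 reads lay between 2.15e-05% and 0.000147% of a library. Reads carry no molecular identifiers. The exact binomial intervals of the strand shares cover counting error only, and the limma intervals rest on the spread between libraries. Only the limma test was tried on simulated counts, and not for every comparison. Genes and hairpin sequences are from GENCODE M21.

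The members, lists and tests were chosen with earlier results of these data known. The text names every strand of the 4 hairpins, the 3 microRNAs most correlated with each of the 4, and up to 6 of the inflammation list, those called in the most comparisons. R was 4.3.3 and Python 3.11.15.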

Additional observations from a re-analysis of the deposited data

Results flagged for a closer look

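In the main fit, the change of miR-146b between the sides was called different between the species by a test of the difference itself. The test passed for 2 of the 7 strands, a share close to the 26% of the 607 microRNAs tested that passed. The count is thus not particular to these strands. Neither call held with the replicate block or by edgeR. miR-146b-3p was tested only through its values in *Spalax*, so its call is given without weight. The split of *Spalax* reads between miR-146a and miR-146b is uncertain. The mouse fibrosarcoma change less the *Spalax* fibrosarcoma change was -3.56 on the log2 scale for miR-146b-5p (limma adjusted p = 0.0231) and -2.72 for miR-146b-3p (adjusted p = 0.0460). Over the alternatives run the difference of miR-146b-5p kept its sign, between -4.04 and -2.82, with an adjusted p between 0.00532 and 0.0946, under 0.05 in 14 of 21. That of miR-146b-3p lay between -3.21 and -2.18, with an adjusted p between 0.00719 and 0.185, under 0.05 in 5 of 21. The cause was not tested.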

How the results depend on the processing

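Depth limits miR-147-3p and the minor strands, at or under 4 reads in each *Spalax* UIS library except for miR-146b-3p. With the filter, at most 6 strands were tested in *Spalax*, 4 in mice and 7 for the species difference, and without it all 8. The *Spalax* counts include miR-146a-3p and miR-147-3p, which carry no weight there. Of all microRNAs tested, 48.3% were called in granuloma, 37.4% in *Spalax* fibrosarcoma, 57.8% in mice and 26% for the species difference. With the replicate block, calls numbered 210 of 447, 151 of 447, 227 of 547 and 118 of 607. Among the 8 strands, the number past the threshold was 4 in granuloma, 2 with only the libraries compared and 1 to 4 with 1 library left out (1 without the UIS library of Sp600 or the IS library of Sp976, 2 without the UIS library of Sp976). It was 5 in *Spalax* fibrosarcoma and 1 to 6 with 1 library left out (1 without the UIS library of Sp2240, 2 without that of Sp2230, 3 without the IS library of Sp2230). In mice it was 1, 3 without a filter, which adds miR-146a-3p and miR-147-5p, and 4 scaled to total reads. Of all microRNAs tested in mice, 339 of 1296 were called without a filter and 407 of 547 scaled to total reads. Between the *Spalax* tumors it was 0, and 1 scaled to total reads (miR-147-3p, limma adjusted p = 0.0357), where 93 of 447 microRNAs were called. For the difference between the species it was 2, 1 without a filter, scaled to total reads or by DESeq2, 0 by edgeR, 0 with the replicate block and 0 to 2 with 1 library left out (0 without the UIS library of M1023, M512 or Sp2240). A replicate block for the animal gave 3 in granuloma, 4 in *Spalax* fibrosarcoma and 1 in mice, where only M512 and M1023 then count, and this paired fit changed no call of a strand other than those named above for miR-146b-3p, miR-146a-3p and the species difference of miR-146b. Over all microRNAs, calls for granuloma change less fibrosarcoma change numbered 17, 0 with a pseudocount of 0.1 or no filter, 43 scaled to total reads, 61 by DESeq2 and 5 with the replicate block, and those for the species difference 158, and 67 by edgeR. With 1 library left out, calls fell as low as 128 from 216 in granuloma, 76 from 167 in *Spalax* fibrosarcoma and 189 from 316 in mice. The share of calls that were higher in granuloma than in fibrosarcoma tissue was 82.1%, and 93.1% by edgeR and 68.5% by DESeq2, and that of the species difference was 77.9%, and 93.0% scaled to total reads and 88.1% by edgeR.

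Directions turned as follows, and the cause was not tested. Scaled to total reads, mouse miR-146b-5p was 1.72 and miR-155-5p 2.33, the *Spalax* UIS difference was -0.021 for miR-146a-5p and -0.11 for miR-155-5p, and the species difference was 0.22 for miR-155-3p and 1.52 for miR-147-3p. Mouse miR-155-5p was 0.094 by edgeR. Granuloma change less fibrosarcoma change was, by edgeR and DESeq2, 0.38 and 0.14 for miR-146a-5p and 0.36 and 0.021 for miR-155-5p. Granuloma less fibrosarcoma tissue was 0.49 and 0.29 for miR-146a-5p, 0.19 and 0.052 for miR-146a-3p and 0.44 and 0.23 for miR-155-5p. The UIS difference of miR-147-3p was -0.78 with a pseudocount of 0.1. The miR-146 log2 ratio was -0.54 in *Spalax* alone.

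With 1 library left out, values ranged across 0 for mouse miR-155-5p (-0.39 to 0.25), for the species difference of miR-147-3p (-0.76 to 0.098) and for the miR-146 ratio (-0.18 to 0.56). They did so for granuloma change less fibrosarcoma change of miR-146a-5p (-1.47 to 0.94), miR-146a-3p (-1.55 to 0.25), miR-146b-5p (-0.15 to 1.08) and miR-155-5p (-2.39 to 1.06). They did so for granuloma less fibrosarcoma tissue of miR-146a-5p (-1.31 to 1.11), miR-146a-3p (-0.61 to 0.89) and miR-155-5p (-2.32 to 1.14), and for the UIS difference of miR-146a-5p (-0.26 to 0.58), miR-146b-3p (-0.57 to 0.049), miR-155-5p (-0.59 to 0.74) and miR-147-3p (-1.10 to 1.51).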
